A study of Mus musculus with 3 samples.

Results

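The cell cycle genes of mouse dorsal skin were followed as a set of 37 genes, all of which were found among the 32285 genes of the deposited single-cell matrices. The set was fixed by symbol and not by measured values. It holds 6 subunits of the MCM replicative helicase (Mcm2 to Mcm7), 4 enzymes of nucleotide supply (Tyms, Tk1, Rrm1, Rrm2), 12 mitotic kinases, cyclins and ubiquitin ligase parts (Cdk1, Ccna2, Ccnb1, Ccnb2, Cdc20, Ube2c, Plk1, Aurka, Aurkb, Bub1, Bub1b, Cks2), 12 chromosome, kinetochore and spindle genes (Mki67, Top2a, Birc5, Cenpa, Cenpe, Cenpf, Tpx2, Nusap1, Kif11, Kif23, Prc1, Hmmr) and 3 genes that are also expressed outside the cycle (Stmn1, Hmgb2, Tubb5). A cell was called cycling when at least 3 of 5 of them, Mki67, Top2a, Birc5, Cdk1 and Ube2c, had at least 1 unique molecular identifier (UMI, 1 count per captured mRNA molecule) after the cell had been thinned at random to 2000 UMIs.

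The libraries came from CD45+ bead-enriched dorsal skin of 8-week-old male C57Bl/6 mice in telogen, the resting phase of the hair cycle, by 10x 3′ sequencing. WT_Ctrl was wild type without UVB, WT_UV was wild type after 3 UVB exposures, and RP_UV was of the genotype RP after 3 UVB exposures. Per the methods of the study, RP mice carry Rosa26-rtTA and Tre-Ptgs2, so that doxycycline switches on cyclooxygenase-2 in any tissue and not in 1 cell type. There was 1 library per group, so no difference was tested, and every interval below covers counting error only (95%). Sample names in the labels place WT_Ctrl and RP_UV on 1 flow cell and WT_UV on another, so group and sequencing run cannot be told apart wherever WT_UV is compared, and RP_UV differs from WT_Ctrl by both UVB and genotype.

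A cell that enters the cycle first licenses its replication origins by loading the MCM helicase, then makes deoxynucleotides and copies its DNA, and then builds a spindle under the mitotic kinases and degrades cyclins and securin through the anaphase-promoting complex. The genes of S phase are largely switched on by E2F factors, and those of G2 and mitosis by complexes that bind a CHR element together with CCAAT boxes. In skin, dividing keratinocytes lie mainly in the basal layer of the epidermis and in the hair follicle, whereas suprabasal keratinocytes differentiate and neutrophils leave the bone marrow after their last division.

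The promoters of 5 members are shown because they hold letters of the E2F, CHR and CCAAT motifs named above. The sequences are RefSeq promoters on GRCm38.p6, the build named mm10 in the submitters' processing notes, from 250 bases before to 50 bases after the start of the gene, and were matched by symbol for 32 of 37 members. Capitals mark, on either strand, the CHR letters TTTGAA, the variant TTCGAA, the CCAAT box CCAAT, and the E2F letters TTTGGCGC, TTTCCCGC, TTTCGCGC or TTTGCCGC. E2F matches on opposite strands can overlap each other, as in Mcm5 and Mcm6.
Cdk1, chr10:69352863-69353162, minus strand: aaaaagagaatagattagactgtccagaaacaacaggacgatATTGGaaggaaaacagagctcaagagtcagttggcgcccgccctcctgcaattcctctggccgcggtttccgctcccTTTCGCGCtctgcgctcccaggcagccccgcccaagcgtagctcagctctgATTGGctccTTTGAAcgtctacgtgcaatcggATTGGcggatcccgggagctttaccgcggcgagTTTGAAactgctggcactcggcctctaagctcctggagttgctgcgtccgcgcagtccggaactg
Ube2c, chr2:164769679-164769978, plus strand: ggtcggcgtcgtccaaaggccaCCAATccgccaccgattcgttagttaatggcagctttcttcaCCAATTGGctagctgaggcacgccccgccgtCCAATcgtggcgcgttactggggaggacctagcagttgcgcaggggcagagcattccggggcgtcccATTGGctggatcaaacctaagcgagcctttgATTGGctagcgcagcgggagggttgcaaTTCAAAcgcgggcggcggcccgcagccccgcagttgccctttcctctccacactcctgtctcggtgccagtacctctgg
Top2a, chr11:99024140-99024439, minus strand: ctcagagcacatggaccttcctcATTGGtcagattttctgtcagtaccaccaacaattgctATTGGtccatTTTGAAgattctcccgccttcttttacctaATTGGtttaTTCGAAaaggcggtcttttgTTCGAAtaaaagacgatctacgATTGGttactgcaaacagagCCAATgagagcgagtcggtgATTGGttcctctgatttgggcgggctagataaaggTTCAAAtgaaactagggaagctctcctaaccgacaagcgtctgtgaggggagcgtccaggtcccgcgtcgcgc
Mcm5, chr8:75109259-75109558, plus strand: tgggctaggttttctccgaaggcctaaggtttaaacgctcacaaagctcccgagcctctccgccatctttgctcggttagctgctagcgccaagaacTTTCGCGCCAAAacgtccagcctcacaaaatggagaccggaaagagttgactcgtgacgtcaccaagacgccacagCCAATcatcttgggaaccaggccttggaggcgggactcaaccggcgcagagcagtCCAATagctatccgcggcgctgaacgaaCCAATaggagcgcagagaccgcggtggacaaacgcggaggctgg
Mcm6, chr1:128359656-128359955, minus strand: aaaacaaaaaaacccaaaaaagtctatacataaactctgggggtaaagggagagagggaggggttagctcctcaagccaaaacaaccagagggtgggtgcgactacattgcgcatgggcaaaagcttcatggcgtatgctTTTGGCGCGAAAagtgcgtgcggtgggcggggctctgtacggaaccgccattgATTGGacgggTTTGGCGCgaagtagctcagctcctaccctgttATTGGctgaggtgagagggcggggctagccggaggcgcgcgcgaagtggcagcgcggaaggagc
The 3 mitotic genes shown hold CHR letters, Cdk1 holds E2F letters as well, and the 2 helicase genes hold E2F letters and no CHR letters. TTTGAA was found in the promoters of 17 of the 32 members (53.1%), against 17.9% of all 32851 promoters of the same length, and these 17 were 7 of 10 mitotic kinases, cyclins and ligase parts, 8 of 11 chromosome and spindle genes, 1 of 5 helicase genes, 0 of 4 nucleotide genes and 1 of 2 genes expressed outside the cycle. TTCGAA was found in 4 members and in 1.56% of all promoters, and CCAAT in 28 members and in 37.4% of all promoters. The 4 E2F forms were found in 5 members (15.6%) and in 2.26% of all promoters, of which 4 were helicase genes, with Cdk1 as the other and none among the nucleotide genes. A member was counted if any of its promoters matched, whereas the shares of all promoters count each promoter once, so both are unlike units. A match is a description of letters and not a site.

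After the filters of the study WT_Ctrl kept 5309 cells, WT_UV 5225 and RP_UV 6070. Median depth was 4246, 10557 and 3774 UMIs in the same order, so WT_UV was the most deeply sequenced library. Of these cells, 4399, 4796 and 4317 had at least 2000 UMIs and could be thinned. Between 8 and 11 cell barcodes were shared by any pair of libraries. Ptgs2, the gene of cyclooxygenase-2, stood at 14.4, 117 and 486 CPM in that order (counts of a gene in each 1000000 UMIs of the summed cells). The authors named no doublet caller, and Scrublet marked 1.39% of WT_Ctrl cells but under 0.02% in the other libraries, where it did not work, so no cell was removed on it.

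RP_UV held the highest share of cycling cells. WT_Ctrl held 87 among 4399 cells (1.98%, 1.59 to 2.43), WT_UV held 76 among 4796 (1.58%, 1.25 to 1.98) and RP_UV held 140 among 4317 (3.24%, 2.73 to 3.82). The kind of cell differed as well. Keratinocyte-like classes, sebocytes included, made up 32.2%, 22.4% and 64.3% of the cycling cells of WT_Ctrl, WT_UV and RP_UV, and conventional dendritic cell-like classes (dendritic cell and cDC1) made up 41.4%, 36.8% and 19.3%. Macrophage-like cells, the largest class, supplied 1, 1 and 7 cycling cells. Cells of clusters left unnamed by the markers supplied 12, 9 and 11. The study described cycling macrophages in all 3 samples, and its classes may differ from these. How many of its cycling macrophages stand here in other classes was not tested. Cycling cells were deeper than the others, with medians of 9680, 26134.5 and 9860.5 UMIs against 4859.5, 11273.5 and 5097, and beyond the thinning the part of depth in the shares was not tested. The bead enrichment also sets how many CD45- cells such as keratinocytes remain, so shares are given within classes.

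Basal keratinocyte-like cells held the most cycling cells of RP_UV, and their cycling share was lowest in WT_Ctrl and highest in RP_UV. Krt5 and Krt14, the keratin pair of the basal layer, marked the class (Krt14 at 8242 CPM in WT_Ctrl, 10252 in WT_UV and 13997 in RP_UV), with Krt10 of the suprabasal layers at 228, 150.2 and 63.4 and the CD45 gene Ptprc at 10.8, 19.9 and 6.31. Some clusters also had hair follicle markers (Krt17, Krt79, Sostdc1 or Fst) among their leading genes, so the class name goes against part of these. The cluster with Fst held 1, 6 and 2 cycling cells of WT_Ctrl, WT_UV and RP_UV. That with both Krt17 and Sostdc1 held 0, 1 and 13, and that with Krt79 held 2, 0 and 9. In WT_Ctrl, 24 of 589 cells cycled (4.07%, 2.63 to 6.00). In WT_UV, 16 of 169 cells cycled (9.47%, 5.51 to 14.9). In RP_UV, 66 of 372 cells cycled (17.7%, 14.0 to 22.0). The intervals of WT_Ctrl and RP_UV do not overlap, and that of WT_UV overlaps both. The ratio was 2.32 (1.26 to 4.27) for WT_UV over WT_Ctrl, 1.87 (1.12 to 3.14) for RP_UV over WT_UV and 4.35 (2.78 to 6.82) for RP_UV over WT_Ctrl. The largest cluster of the class differed between the libraries. In WT_Ctrl 1 other cluster held 18 of the 24 cycling cells, and it held 5 of 16 in WT_UV and 4 of 66 in RP_UV. Without it the shares were 1.08%, 6.75% and 16.9%. The largest cluster of WT_Ctrl had no cycling cell in any library and held 185, 35 and 9 thinned cells. Without that cluster the shares were 5.94%, 11.9% and 18.2%. Another cluster without cycling cells held 140, 17 and 1, with shares of 5.35%, 10.5% and 17.8% without it. The ratios without both are not given, and the part of the cluster mix in the ratios was not tested. With the limit of 4000 genes, used by the authors in the other libraries, also set on WT_UV, the ratio of WT_UV over WT_Ctrl became 0.884 (0.313 to 2.50), so its direction depends on that limit.

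Among the other epithelial cells, the hair follicle keratinocyte-like class held 1 cycling cell among 112 for WT_Ctrl (0.893%), 1 among 69 for WT_UV (1.45%) and 20 among 200 for RP_UV (10.0%, 6.22 to 15). Suprabasal keratinocyte-like cells cycled in 3 of 353 (0.850%), 0 of 159 (which allows up to 2.29%) and 4 of 205 (1.95%). Sebocyte-like cells in RP_UV had 0 of 78 (up to 4.62%). Most cycling epithelial cells were basal or follicular, and the follicular interval of RP_UV lies above the values of the other libraries but overlaps the interval of WT_UV, which reaches 7.81%.

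Dendritic cell-like cells held the most cycling cells of both wild-type libraries and came after basal keratinocyte-like cells in RP_UV. WT_Ctrl held 27 among 711 cells of the class (3.80%, 2.52 to 5.48), WT_UV held 24 among 732 (3.28%, 2.11 to 4.84) and RP_UV held 23 among 240 (9.58%, 6.17 to 14.0). The RP_UV interval does not overlap those of the other libraries, which overlap each other. The ratio of WT_UV over WT_Ctrl was 0.863 (0.503 to 1.48) and that of RP_UV over WT_UV was 2.92 (1.68 to 5.08). Without thinning these were 1.51 (1.07 to 2.12) and 1.48 (1.03 to 2.14), and with another random draw of the thinning 1.08 and 1.93, so the direction of the first depends on the thinning. The ratio of RP_UV over WT_Ctrl was 2.52 (1.48 to 4.32), and 1.32 (0.516 to 3.40) when clustered with the cell cycle genes. The largest cluster of the class was another one in each library, and that of WT_UV held 177 of its thinned cells, 1 of WT_Ctrl and 46 of RP_UV. Clusters with Retnla among their leading genes, some of them led by Lyz1, Fn1 and Ear2 as well, held 3 of the 27, 10 of the 24 and 6 of the 23 cycling cells, and the study uses Retnla and Ear2 to mark early-stage macrophages, so the name of the class goes against part of its own leading genes. Without these clusters the ratios were 0.580 (0.303 to 1.11) for WT_UV over WT_Ctrl, 3.57 (1.80 to 7.09) for RP_UV over WT_UV and 2.07 (1.14 to 3.76) for RP_UV over WT_Ctrl. In the cycling cells of the class the complement gene C1qa stood at 17.4, 116 and 208 CPM and C1qb at 4.36, 166 and 439, against 4079 to 6700 for C1qb in macrophage-like cells. The macrophage gene Adgre1 stood at 82.8, 69.1 and 111.0, against 395 to 493 there. Of the dendritic cell markers, Cd209a stood at 845, 670 and 476, against 431, 325 and 112 in macrophage-like cells, H2-DMb2 at 69.7, 183 and 102, and Flt3 at 74.0, 55.2 and 9.25. The cycling cells of RP_UV thus held the most of both complement genes and the least Cd209a and Flt3, and the part of this in the shares was not tested. cDC1-like cells, the cross-presenting dendritic cells, cycled in 9 of 78 (11.5%, 5.41 to 20.8), 4 of 74 (5.41%, 1.49 to 13.3) and 4 of 12 (33.3%, 9.92 to 65.1).

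Among T cell-like cells, WT_Ctrl held 8 cycling cells of 210 (3.81%, 1.66 to 7.37), WT_UV 11 of 483 (2.28%, 1.14 to 4.04) and RP_UV 1 of 16 (6.25%, 0.158 to 30.2), with intervals that overlap. Macrophage-like cells cycled in 1 of 1421 (0.0704%, at most 0.391), 1 of 1793 (0.0558%, at most 0.310) and 7 of 1893 (0.370%, 0.149 to 0.760). Langerhans cell-like cells cycled in 1 of 69, 4 of 74 and 1 of 20, and ILC2-like cells in 1 of 31, 5 of 158 and 0 of 2. No cycling cell was found among 274 and 230 fibroblast-like cells of WT_Ctrl and RP_UV (which allows up to 1.34% and 1.59%), nor among 350 monocyte-like cells of WT_UV (up to 1.05%).

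**Figure D1:**
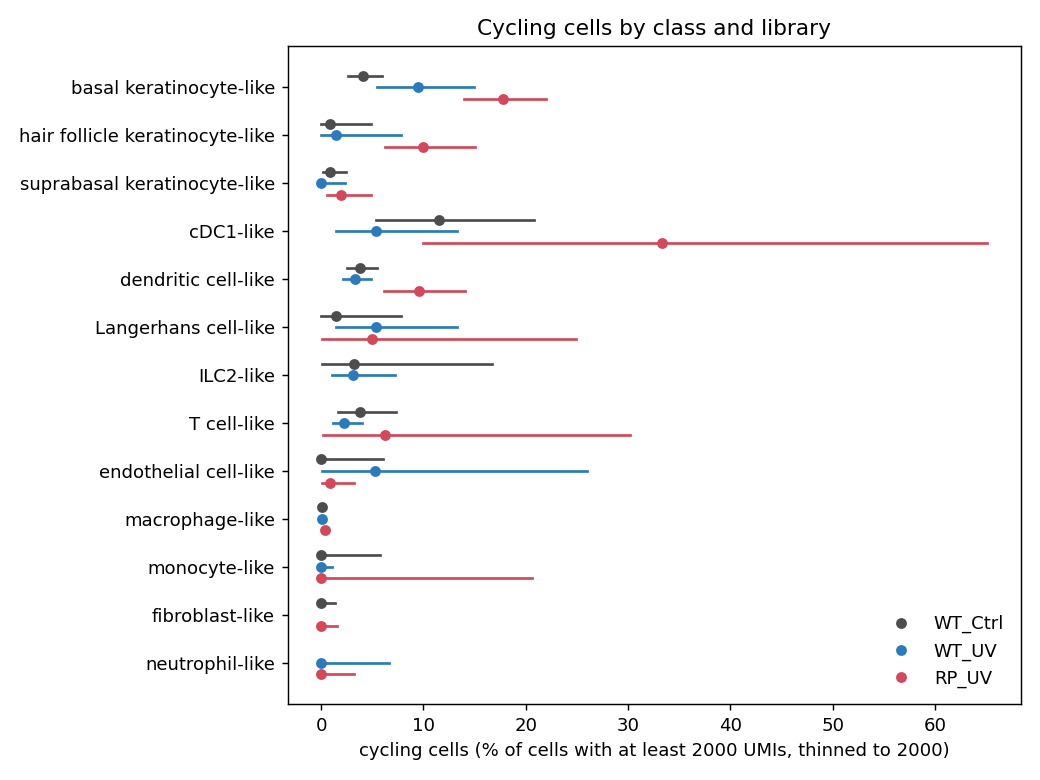
Share of cycling cells (x axis, % of cells with at least 2000 UMIs, thinned to 2000) by class (y axis) in the 3 libraries. Points are shares and lines are exact 95% Clopper-Pearson intervals of counting error, and class-library pairs under 10 cells are left out. The RP_UV points of the basal keratinocyte-like (17.7%), hair follicle keratinocyte-like (10.0%) and dendritic cell-like (9.58%) classes lie to the right of the other libraries.

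Neutrophil-like cells served as the class that should lack the cycle genes. Their summed member level was nonetheless 1497 CPM in WT_UV and 1291 in RP_UV, against 639 and 857 in macrophage-like cells. Cks2 alone stood at 411 and 415 there in the neutrophil-like cells. None of 54 such cells in WT_UV and 113 in RP_UV cycled, at a median depth of 3277 and 2811 UMIs before thinning, and 468 shallower cells of RP_UV were left out. At least 1 of the 5 rule genes was seen in 2 of 54 (3.70%) and 5 of 113 (4.42%). Macrophage-like cells showed at least 1 rule gene at shares of 2.74%, 3.23% and 5.55%, where the cells that did not cycle had median depths of 4022.5, 11158.5 and 4920 UMIs. The WT_UV value lies below the neutrophil-like value of that library and inside its interval (0.452 to 12.7). The RP_UV value lies inside the neutrophil-like interval of that library (1.45 to 10.0). The part of background in both values was not tested. Basal keratinocyte-like cells showed at least 1 in 12.6%, 20.1% and 48.7%. The WT_UV and RP_UV values lie above the neutrophil-like intervals of their libraries, and WT_Ctrl had only 1 neutrophil-like cell deep enough to thin.

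Each of the rule genes was seen in the largest share of basal keratinocyte-like cells in RP_UV. Top2a, which untangles replicated DNA, was seen after thinning in 7.64%, 13.6% and 28.8% (24.2 to 33.7) of these cells, in the order WT_Ctrl, WT_UV and RP_UV. Mki67, the antigen of the Ki-67 stain, was seen in 8.66%, 10.7% and 23.4% (19.2 to 28.0). Ube2c, the ubiquitin-conjugating enzyme of the anaphase-promoting complex, was seen in 4.58%, 7.69% and 21.5% (17.4 to 26.0). Cdk1, the kinase that drives mitotic entry, was seen in 3.90%, 8.28% and 19.1% (15.2 to 23.5), and Birc5, a subunit of the chromosomal passenger complex, in 4.07%, 5.92% and 15.9% (12.3 to 19.98). The order WT_Ctrl, WT_UV, RP_UV held for each of the 5 genes, and no RP_UV interval of these reached the WT_Ctrl value. Without thinning the RP_UV shares lay between 37.6% and 47.3%. In RP_UV, 47 cells of the class held 2 rule genes, just outside the threshold, and 31 held 3, just inside it. In WT_Ctrl these numbers were 14 and 1, and in WT_UV 5 and 9. A further 12 cells of WT_Ctrl held 4 and 11 held 5 rule genes, so in that library more cells lay just outside the threshold than just inside it.

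**Figure D2:**
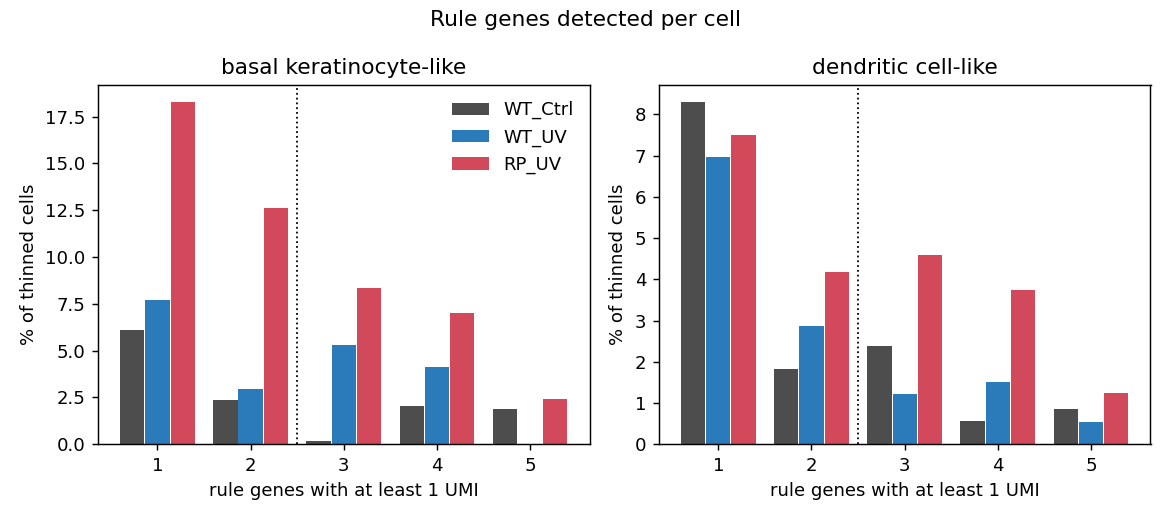
Share of thinned cells (y axis, %) by the number of the 5 rule genes with at least 1 UMI (x axis; cells with 0 are not drawn) in basal keratinocyte-like and dendritic cell-like cells. Bars are libraries and the dotted line is the threshold for a cycling cell. In RP_UV basal keratinocyte-like cells 12.6% held 2 rule genes and 8.33% held 3.

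The other 32 members were then read in the cells the rule had chosen, as a description. In basal keratinocyte-like cells their median fold in cycling over non-cycling cells was 20.6 in WT_Ctrl and 18.5 in WT_UV, but 3.59 in RP_UV. Nusap1, a spindle protein, was 164, 37.8 and 6.99 times higher in the cycling cells. The helicase genes differed less between both kinds of cell: Mcm2 was 1.36, 0.854 and 0.388 times the level of the non-cycling cells, and Mcm7 2.58, 2.14 and 1.20 times. A cell that carried helicase genes alone was not counted as cycling. In dendritic cell-like cells the median fold was 18.1, 15.3 and 8.03.

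The summed level of the 37 members followed the same order in basal keratinocyte-like cells. It was 3004, 4016 and 6219 CPM in WT_Ctrl, WT_UV and RP_UV, with folds of 1.34 (1.30 to 1.37) for WT_UV over WT_Ctrl and 1.55 (1.51 to 1.58) for RP_UV over WT_UV. Clustered with the cell cycle genes among its features, the former fold became 1.01, and with 4000 genes as the limit in each library it became 0.643. C1qb, a macrophage gene, stood at 24.8, 63.3 and 89.0 CPM in this class against 4079 to 6700 in macrophage-like cells, and its part in the result was not tested.

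Between the wild-type libraries the helicase genes had a higher median fold than the mitotic genes, by an amount that was not tested. Their median log2 fold of WT_UV over WT_Ctrl was 1.13, against 0.14 for the kinases and cyclins. With 4000 genes as the limit in each library these became 0.32 and -1.43, so the mitotic genes were then further from 0 and on the other side of it. Mcm2, a helicase subunit, stood at 9.49 CPM in WT_Ctrl, 25.5 in WT_UV and 38.8 in RP_UV of the basal keratinocyte-like cells. Mcm5 stood at 15.6, 41.4 and 63.7, and Mcm4, the helicase gene with the lowest WT_UV over WT_Ctrl fold, at 24.3, 39.4 and 55.6. For each of these the WT_Ctrl level was the lowest and the RP_UV level the highest. All 6 helicase genes passed a fold of 1.5 in WT_UV over WT_Ctrl, from 1.63 (1.23 to 2.16) for Mcm4 to 2.69 (1.79 to 4.11) for Mcm2. With 4000 genes as the limit in each library the fold of Mcm4 became 0.943. In RP_UV over WT_UV they were between 1.27 (1.04 to 1.56) for Mcm6 and 1.54 (1.23 to 1.93) for Mcm5, and 2 of 6 passed.

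Of the nucleotide genes, 2 of 4 passed a fold of 1.5 in WT_UV over WT_Ctrl and 3 of 4 in RP_UV over WT_UV. With 4000 genes as the limit in each library the median log2 fold of the 4 genes in the first turned from 0.76 to -0.16. Rrm2, the regulated subunit of ribonucleotide reductase, stood at 13.4 CPM in WT_Ctrl, 49.7 in WT_UV and 117.8 in RP_UV. Tyms, thymidylate synthase, stood at 45.6, 56.4 and 157. Rrm1, the large reductase subunit, stood at 46.4, 68.0 and 97.7. Rrm2 had the highest fold of any member in WT_UV over WT_Ctrl, 3.70 (2.67 to 5.18), and Tyms the highest in RP_UV over WT_UV, 2.79 (2.35 to 3.34). Tyms was 1.24 (0.994 to 1.54) in the former, and Rrm1 was 1.46 (1.19 to 1.80) in the former and 1.44 (1.20 to 1.72) in the latter.

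The mitotic kinases, cyclins and ligase parts were all highest in RP_UV. So were the nucleotide genes. Of these, Tyms, Tk1 and Rrm2 had larger folds of RP_UV over WT_UV (2.79, 2.61 and 2.37) than any gene below, and Rrm1 a smaller one (1.44). Plk1, a kinase of spindle assembly, stood at 12.7 CPM in WT_Ctrl, 11.9 in WT_UV and 25.8 in RP_UV. Ccna2, cyclin A2, stood at 23.7, 35.8 and 65.2, and Bub1, a spindle checkpoint kinase, at 9.23, 12.6 and 20.4. Cdk1 stood at 51.4, 68.0 and 140.4 and Ube2c at 106.3, 132 and 267. In WT_UV over WT_Ctrl, 1 of 12 passed a fold of 1.5, Ccna2 at 1.51 (1.13 to 2.02), which became 0.422 with 4000 genes as the limit in each library and 0.991 when clustered with the cell cycle genes, and Plk1 was lowest at 0.943 (0.594 to 1.48). In RP_UV over WT_UV, 12 of 12 passed, from Bub1 at 1.62 (1.08 to 2.48) to Plk1 at 2.17 (1.45 to 3.29).

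The chromosome and spindle genes lay between. Mki67 stood at 107.6, 156 and 225 CPM, Top2a at 119.7, 168 and 289, and Birc5 at 53.8, 74.9 and 154. Nusap1 stood at 41.7, 77.6 and 77.8, and Cenpa, the centromeric histone, at 71.2, 59.3 and 143. Nusap1 passed the fold in WT_UV over WT_Ctrl at 1.86 (1.51 to 2.29), the 1 gene of 12 to do so (0.515 with 4000 genes as the limit in each library), and was lowest in RP_UV over WT_UV at 1.003 (0.838 to 1.20). Cenpa was lowest in the first at 0.833 (0.686 to 1.01) and highest in the second at 2.41 (2.02 to 2.87), where 8 of 12 passed. Of the genes also expressed outside the cycle, Tubb5, a beta tubulin, stood at 374, 614 and 787 and Hmgb2, a chromatin protein, at 649, 813 and 1209, with folds of 1.64 (1.53 to 1.76) and 1.25 (1.18 to 1.32) in the first and 1.28 (1.21 to 1.36) and 1.49 (1.41 to 1.56) in the second comparison.

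**Figure D3:**
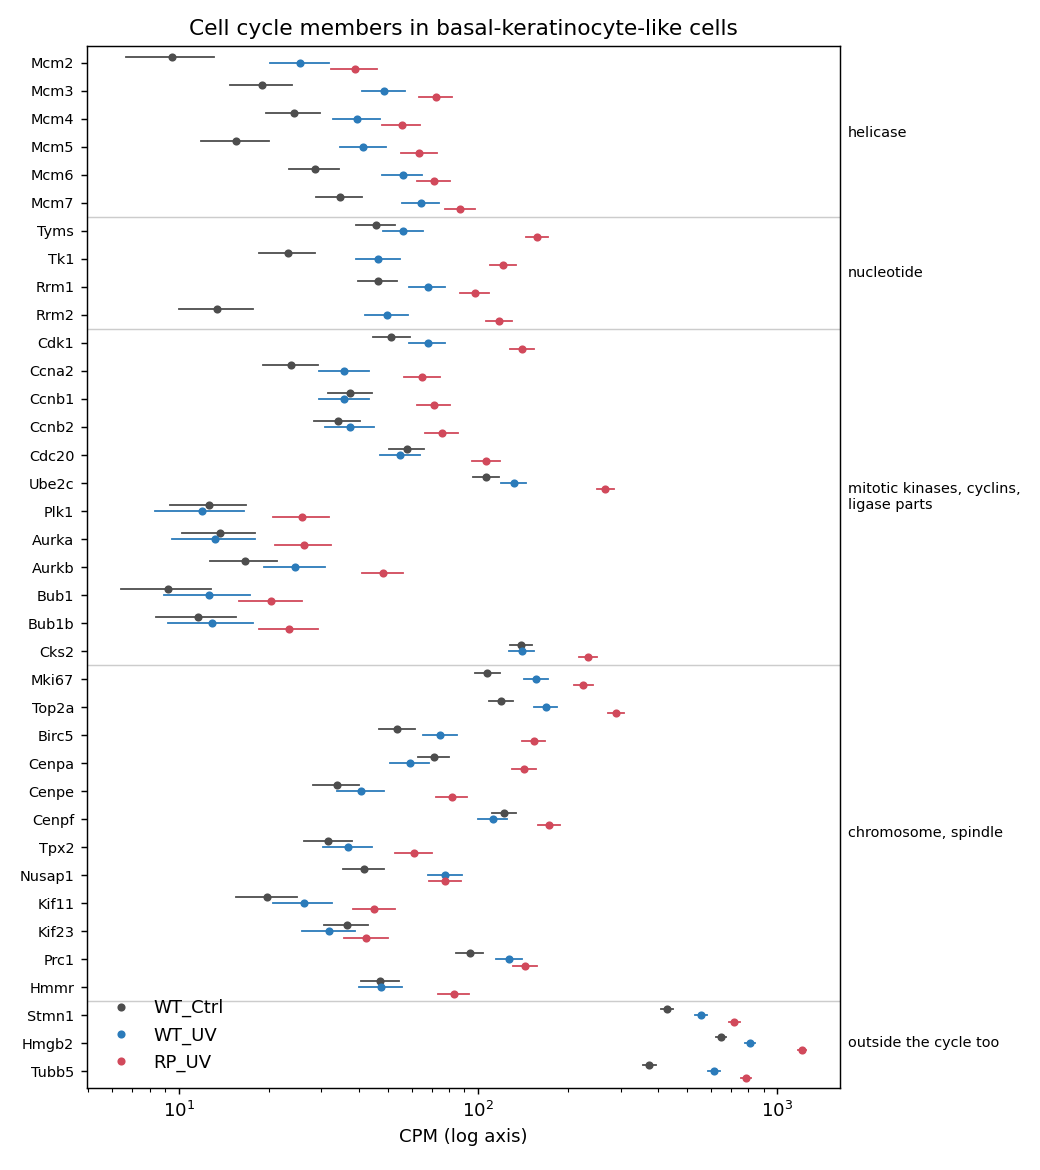
Level of each of the 37 members (x axis, CPM, log axis) in the summed counts of basal keratinocyte-like cells of each library, grouped by role. Lines are exact 95% Poisson intervals. With the filters of the study the helicase genes separate WT_Ctrl from both irradiated libraries, as for Mcm2 at 9.49, 25.5 and 38.8. Genes that stand higher in RP_UV than in both wild-type libraries include Plk1 at 12.7, 11.9 and 25.8 and the nucleotide gene Tyms at 45.6, 56.4 and 157.

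Over the set, all 37 members had at least 20 UMIs in basal keratinocyte-like cells. In WT_UV over WT_Ctrl, 11 of 37 were higher by a fold of 1.5, beside 8.85% of the 10479 genes with that many UMIs, and 0 were lower, beside 13.7%. The median was 0.40 on the log2 scale, beside -0.10 for all genes. In RP_UV over WT_UV, 25 of 37 were higher, beside 18.7% of genes, and 0 were lower, beside 16.6%, with a median log2 fold of 0.76 beside 0.05. In RP_UV over WT_Ctrl, 35 of 37 were higher, beside 19.3%, and 0 were lower, beside 24.3%. By role, the median log2 fold in the first comparison was 1.13 for the helicase, 0.76 for nucleotide supply, 0.14 for kinases and cyclins and 0.33 for chromosome and spindle, and in the second it was 0.53, 1.30, 0.94 and 0.74. With 4000 genes as the limit in each library, 2 members were higher and 25 lower in the first comparison, and 37 were higher in the second. The kinases and cyclins then gave a median of -1.43 and the chromosome and spindle genes -1.40 in the first, and 2.62 and 2.29 in the second, whereas the helicase genes gave 0.32 and 1.16. Without the cycling cells the helicase median was 1.09 in the first comparison and that of the kinases and cyclins 2.05 in the second.

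**Figure D4:**
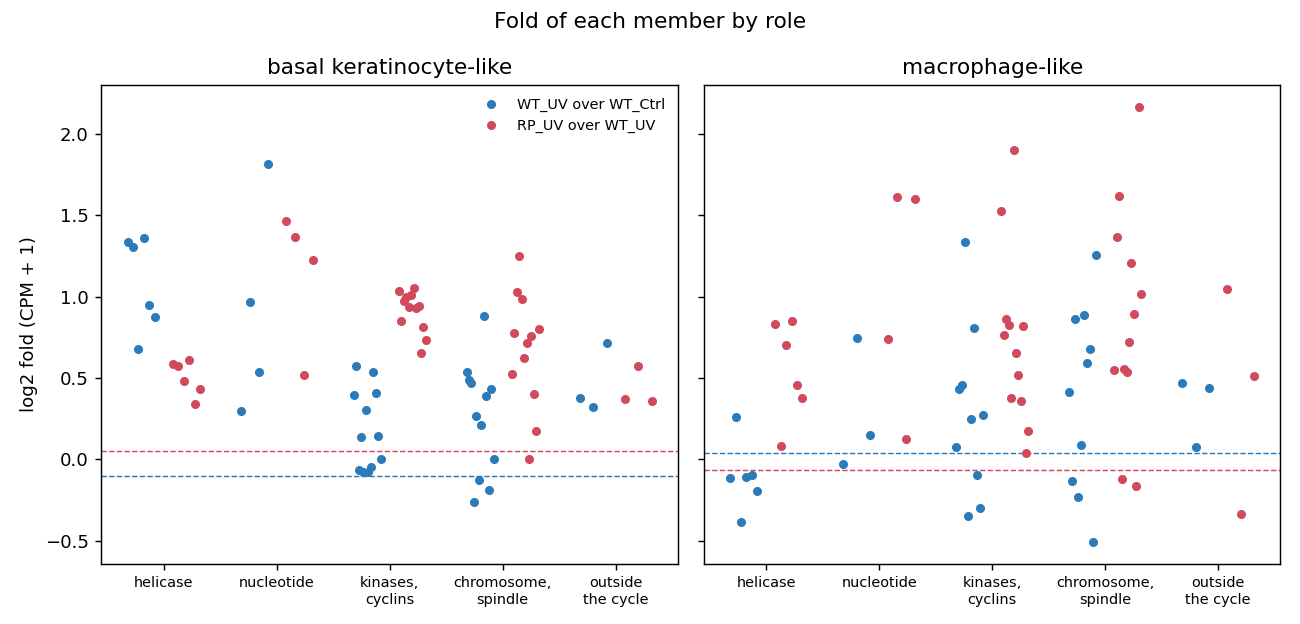
Fold of each member with at least 20 UMIs (y axis, log2 of CPM plus 1) by role (x axis) in basal keratinocyte-like and macrophage-like cells, for WT_UV over WT_Ctrl and RP_UV over WT_UV, which share the WT_UV library. Dashed lines are the medians of all genes with as many UMIs, between -0.10 and 0.05. In basal keratinocyte-like cells the helicase genes lie higher in the first comparison (median 1.13 against 0.53) and the kinases and cyclins in the second (0.94 against 0.14).

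Further genes of the pathway were read from 4 fixed lists in the same cells. Of 34 other S phase genes, 22 were higher and 0 lower by a fold of 1.5 in WT_UV over WT_Ctrl, and 22 and 0 in RP_UV over WT_UV. Over all genes 8.85% were higher and 13.7% lower in the first, and 18.7% and 16.6% in the second. In the first, Ccne2, a cyclin E, was highest at 3.35 (4.75 and 15.9 CPM) and the helicase Blm lowest at 0.873. In the second, the origin-licensing gene Cdc6 was highest at 3.14 (4.31 and 13.5 CPM) and Brip1 lowest at 0.933. Of 30 other G2 and M phase genes, 6 were higher in the first comparison, with the spindle checkpoint kinase Ttk highest at 2.33 and Ect2 lowest at 0.733, and 12 in the second, with Cks1b highest at 2.57 and Hjurp lowest at 1.03. None was lower in either.

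Among 11 genes of G1 cyclins, their kinases and E2F factors, 4 were higher in WT_UV over WT_Ctrl and 3 in RP_UV over WT_UV, and 0 were lower. The latter count is near the 18.7% of all genes that were higher there. E2f1 stood at 4.48 CPM in WT_Ctrl, 13.3 in WT_UV and 19.8 in RP_UV, and Ccne1, cyclin E1, at 3.43, 5.30 and 19.5. Ccnd2, a D cyclin, stood at 610, 429.6 and 389. The fold of E2f1 was highest in the first comparison, 2.96 (1.64 to 5.56), with Ccnd2 lowest at 0.705 (0.658 to 0.755), and Ccne1 was highest in the second, 3.68 (2.11 to 6.82), with Cdk6 lowest at 0.705 (0.565 to 0.879). Of 14 cell cycle brakes, 12 had at least 20 UMIs, and their counts in the first comparison are near the shares of all genes, 8.85% higher and 13.7% lower. In the first comparison 1 was higher, Ccng1 at 1.54 (1.16 to 2.04), and 1 lower, Btg2, an antiproliferative gene, at 0.356 (0.326 to 0.388). In the second 0 were higher, beside 18.7% of all genes, and 4 lower, beside 16.6%. The 4 were Cdkn1a, the inhibitor p21, at 0.331 (0.287 to 0.381), Ccng2 at 0.466, Btg1 at 0.522 and Cdkn1b, the inhibitor p27, at 0.628. Cdkn1c had the highest fold at 1.40. Cdkn1a stood at 219.9, 242 and 80.2 CPM, so the wild-type libraries were close and RP_UV was low. Btg2 stood at 623, 221 and 207, so WT_Ctrl was high and the irradiated libraries close.

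**Figure D5:**
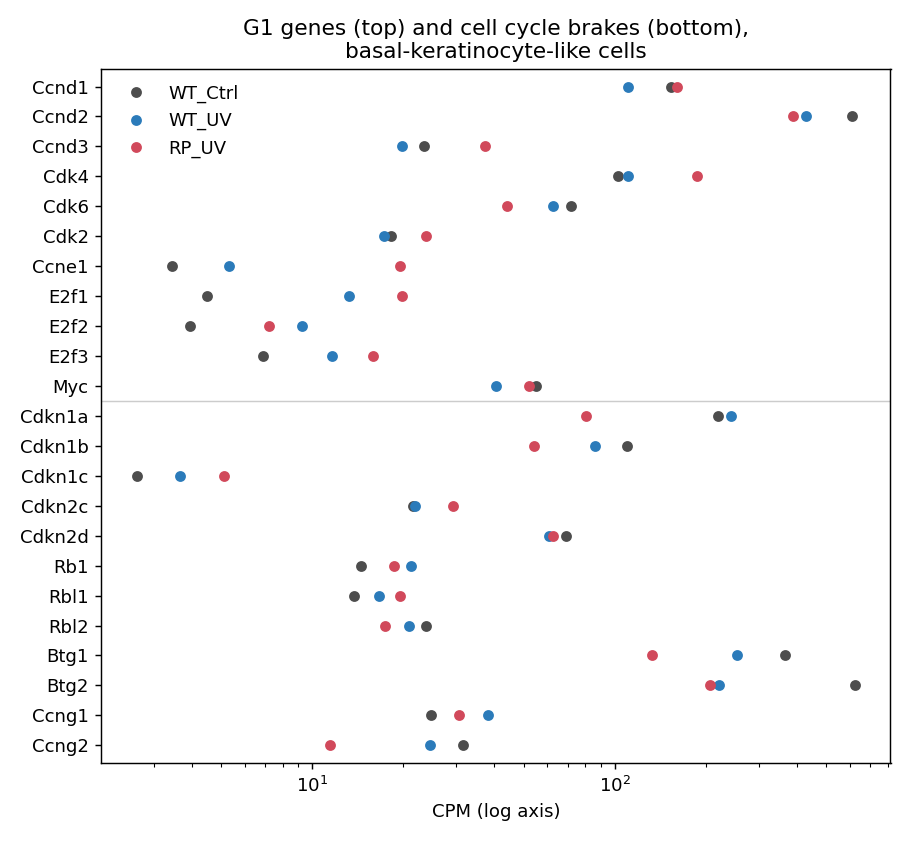
Level of G1 genes (above the line) and cell cycle brakes (below it) with at least 20 UMIs (x axis, CPM, log axis) in basal keratinocyte-like cells of each library. E2f1 and Ccne1 are highest in RP_UV, and Cdkn1a is lowest there at 80.2 against 219.9 in WT_Ctrl and 242 in WT_UV.

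In dendritic cell-like cells the members were near each other in the wild-type libraries as filtered by the study, but not with 1 gene limit. The summed level was 1944, 2111 and 3202 CPM in WT_Ctrl, WT_UV and RP_UV. In WT_UV over WT_Ctrl 5 of 37 members were higher by a fold of 1.5, beside 13.4% of genes, and 0 lower, beside 7.3%. In RP_UV over WT_UV 20 were higher, beside 11.9%, and 0 lower, beside 20.4%, with a median log2 fold of 0.59 beside -0.06. Here the replication genes led: all 6 helicase genes and all 4 nucleotide genes passed the fold in RP_UV over WT_UV, as did 4 of 12 kinases, cyclins and ligase parts and 5 of 12 chromosome and spindle genes. Tyms stood at 16.4, 18.9 and 49.7, Mcm7 at 27.6, 24.8 and 52.8, and Cdk1 at 19.0, 19.2 and 50.3, with the wild-type libraries close for each. Ccnb1, cyclin B1, stood at 6.13, 13.5 and 12.9, so for it WT_Ctrl alone was low. With 4000 genes as the limit in each library, 0 members were higher and 30 lower in WT_UV over WT_Ctrl (median log2 fold -1.21, fold of the summed level 0.605), and 36 were higher in RP_UV over WT_UV. Clustered with the cell cycle genes, 0 were higher and 25 lower in the former, and 13 higher and 8 lower in the latter. The class as a whole held more C1qa in RP_UV (512 against 109 in WT_Ctrl and 222 in WT_UV), whose part in the result was not tested.

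In macrophage-like cells the members stood at low levels. Their sum was 547, 639 and 857 CPM in WT_Ctrl, WT_UV and RP_UV, of which Tubb5 alone gave 211, 287 and 409 and Hmgb2 129.8, 137 and 109. In WT_UV over WT_Ctrl, 32 of 37 members had at least 20 UMIs, 10 were higher by a fold of 1.5, beside 12.9% of genes, and 1 lower, beside 7.51%. With 4000 genes as the limit in each library 0 were higher and with at least 50 UMIs 1 was. The class held 22398627 UMIs in WT_UV against 6373786 in WT_Ctrl, so a member could reach 20 UMIs through WT_UV alone. Hmmr (0 and 31 UMIs in WT_Ctrl and WT_UV), Ccnb2 (1 and 43) and Birc5 (4 and 44) did so. The counts of this comparison are therefore not read as a result about the members. In RP_UV over WT_UV all 37 had at least 20 UMIs, 26 were higher, beside 10.1%, and 0 lower, beside 17%, with a median log2 fold of 0.72 beside -0.06. Clustered with the cell cycle genes the count was 11, and with classes from marker UMIs it was 10. Krt14 of keratinocytes stood at 26.0, 19.3 and 80.5 CPM in this class, against 8242 to 13997 in basal keratinocyte-like cells, and its part in the result was not tested. The largest cluster of the class was another one in each library (37.5%, 30.4% and 35.0% of its cells), and the part of this was not tested either.

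Several of the highest member folds in macrophage-like cells rested on few UMIs. Prc1, a spindle midzone protein, stood at 0.784, 0.580 and 6.09 CPM, the highest fold in RP_UV over WT_UV at 10.5 (5.74 to 20.7). Ube2c stood at 0.784, 1.12 and 6.91, a fold of 6.19 (3.90 to 10.2), and Rrm2 at 0.157 (1 UMI), 0.804 and 4.46, a fold of 5.55 (3.17 to 10.1). In all of these RP_UV was high and the wild-type libraries low. Under the alternative processings the folds ranged from 1.97 to 11.9 for Prc1, 1.72 to 11.6 for Ube2c and 1.27 to 6.66 for Rrm2. The low ends lie below the counting intervals above. Of the other genes of the cycling rule, Mki67 stood at 7.37, 10.2 and 15.4, and Top2a at 5.33, 4.78 and 13.9. Birc5 stood at 0.628, 1.96 and 8.10, and Cdk1 at 2.82, 3.04 and 10.6. Their folds of RP_UV over WT_UV were 1.51, 2.91, 4.12 and 3.51. Stmn1, a tubulin-binding protein, stood at 14.4, 20.4 and 43.3, and Mcm5 at 5.02, 4.60 and 9.10, with folds of 2.12 (1.86 to 2.42) and 1.98 (1.49 to 2.63). The lowest folds of RP_UV over WT_UV were those of Mcm3 (1.06), Rrm1 (1.10), Bub1b (1.05), Kif23 (0.886) and Hmgb2 (0.793). In WT_UV over WT_Ctrl, Hmmr had 0 UMIs in WT_Ctrl and 31 in WT_UV, at least 2.94-fold higher when WT_Ctrl is set to 3 counts. Ccnb2 had 1 UMI against 43, a fold of 12.2 (2.08 to 494), and Tk1 2 against 27, a fold of 3.84 (0.965 to 33.3). Mcm3 at 1.21 and Stmn1 at 1.41 were the highest of their roles, and Mcm4 (0.746), Tyms (0.980), Cdc20 (0.632, on 9 and 20 UMIs), Kif23 (0.691) and Hmgb2 (1.05) the lowest.

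The fixed lists of the pathway were read in macrophage-like cells too, where 12.9% of all genes were higher and 7.51% lower in WT_UV over WT_Ctrl, and 10.1% and 17% in RP_UV over WT_UV. Several of the counts, such as that of lower S phase genes in the first comparison and those of the G1 list, are near these shares. Other S phase genes gave 8 higher and 2 lower of 32 in WT_UV over WT_Ctrl (E2f8 highest at 5.69 on 2 and 40 UMIs, Prim1 lowest at 0.619) and 14 and 1 of 34 in RP_UV over WT_UV (Pclaf highest at 4.15, E2f8 lowest at 0.560). Other G2 and M phase genes gave 8 and 1 of 23 (Kif2c 7.68, Anln 0.638) and 8 and 3 of 25 (Cdca3 3.83, Gas2l3 0.461). The G1 list gave 2 and 1 of 10 (E2f2 3.13, Ccnd1 0.531) and 2 and 1 of 11 (Ccne1 10.2, E2f2 0.370). The brakes gave 3 and 2 of 12 and 1 and 4 of 12. Cdkn1a stood at 81.1 CPM in WT_Ctrl, 236 in WT_UV and 225 in RP_UV, so in this class both irradiated libraries were high, with a fold of 2.91 (2.66 to 3.19) in WT_UV over WT_Ctrl. Cdkn1c was lowest in that comparison at 0.524, and Cdkn2d, the inhibitor p19, was highest in RP_UV over WT_UV at 2.50 (2.15 to 2.90), with Ccng2 lowest at 0.458.

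In T cell-like cells the summed level of the members was 2735, 2871 and 1879 CPM, the last from 55 cells. In WT_UV over WT_Ctrl 8 of 37 were higher, beside 14.4% of genes, and 0 lower, beside 7.02%. The fold of the summed level was 1.05 for WT_UV over WT_Ctrl and 0.655 for RP_UV over WT_UV. Neither direction held: the first ranged down to 0.626 and the second up to 1.56 under the alternatives. In RP_UV the class held 96305 UMIs against 3203076 in WT_UV, so a member could have 20 UMIs through WT_UV alone, and no count of members is given for that comparison. Over all genes, 18.8% were higher and 34.1% lower there.

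Across the 37 class-by-library sums of at least 50 cells, 27 of the 37 members had their highest level in RP_UV basal keratinocyte-like cells. The other 10 were highest elsewhere. Cks2, a subunit that binds cyclin-dependent kinases, was highest in neutrophil-like cells, at 414.5 and 411.3 CPM in RP_UV and WT_UV. Kif23, a midzone motor, was highest in mast cell-like cells of WT_UV, at 139, and Stmn1 in Schwann cell-like cells, at 866 in RP_UV and 795 in WT_Ctrl. Mki67, Tpx2 and Kif11 were highest in WT_Ctrl cDC1-like cells, at 229, 61.3 and 55.5. Stmn1, Hmgb2 and Tubb5 together gave 52.7% to 57.2% of all member UMIs of a library. The genes outside the set whose level followed the summed member level most closely over these sums were Esco2 (Pearson r = 0.840 on the log2 scale), Ncapg (0.836), Knstrn (0.834), H2afx (0.833), Knl1 (0.829), Smc4 (0.823), Clspn (0.823) and Lockd (0.823). These correlations are descriptions over sums that share libraries and depth.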

How the data were processed

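Raw UMI counts for every gene and cell barcode were deposited, which the authors made with cellranger 6.1.1 on mm10 per the submitters' processing notes, with 1 matrix per library and no normalization. Cells were kept as in the study: under 10% mitochondrial UMIs, over 200 genes, and under 4000 genes (6000 in WT_UV). No doublets were removed. Libraries were normalised and integrated with Seurat 5.3.0 and sctransform 0.4.2 in R 4.3.3 (2816 features, 24 clusters), and scanpy 1.11.5 split the clusters into 131. So that members did not define clusters, 514 genes were kept out of the clustering. They were the 37 members, 64 genes of the pathway lists and 413 genes correlated with the summed members (at least 0.2 in a library). The 413 include genes of other functions, such as ribosomal genes, Gapdh, Sfn and Dsg3, but no fixed marker. Clustered with the cell cycle genes means with all 514 allowed. Clusters were named X-like from fixed markers. Class names are thus rebuilt and may differ from the study's.

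Members were summed per class and library as CPM. Intervals are exact Poisson for sums, exact Clopper-Pearson for shares and conditional binomial for folds (95%). A gene entered a comparison with at least 20 UMIs over both libraries and counted as higher or lower at a fold of 1.5. Median log2 folds used a pseudocount of 1 CPM. In basal keratinocyte-like and macrophage-like cells, the named members are the 5 rule genes and the highest and lowest fold of each role. For each pathway list the highest and lowest fold are named, with 8 non-members chosen by correlation. Other named genes were chosen after their values were seen. The members and lists were chosen with earlier results of these data known. Scripts were tested on simulated data.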

Additional observations from a re-analysis of the deposited data

Results flagged for a closer look

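Cells above the upper gene limit took no part in the comparisons, yet some of them cycled. Of 147 such cells in WT_Ctrl, 5 cycled (3.40%, exact interval 1.11 to 7.76). Of 192 such cells in RP_UV, 32 cycled (16.7%, 11.7 to 22.7), and 15 of these were among 31 basal keratinocyte-like cells. They are given because they come from cells outside the comparisons and pass 3 counts of their total (2.04% and 1.56%), which is no test, and the WT_Ctrl interval includes that level.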

How the results depend on the processing

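No paired analysis was possible because each group had 1 library. Values are ratios or folds, in the order named, and the cause of each change was not tested. The limits are 1 library per group, a second flow cell for WT_UV, and depth.

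With an upper limit of 4000 genes in each library, which leaves out 1112 cells of WT_UV, the share ratio of WT_UV over WT_Ctrl in basal keratinocyte-like cells was 0.884 and in dendritic cell-like cells 0.426, and those of RP_UV over WT_UV were 4.92 and 5.92. The summed level folds were 0.643 and 0.605 for WT_UV over WT_Ctrl, 3.22 and 2.72 for RP_UV over WT_UV, and 1.38 for macrophage-like cells in the latter. Higher members in WT_UV over WT_Ctrl numbered 2 in basal keratinocyte-like and 0 in macrophage-like cells. Ccna2 gave 0.422, Mcm4 0.943, Nusap1 0.515 and Tubb5 0.935 there, and the nucleotide genes a median log2 fold of -0.16. With 6000 genes, the level folds were 1.66, 1.78 and 1.39 for RP_UV over WT_UV in basal keratinocyte-like, dendritic cell-like and macrophage-like cells, and 1.05 for WT_UV over WT_Ctrl in dendritic cell-like cells.

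Clustered with the cell cycle genes, the share ratios were 1.25 (basal, WT_UV over WT_Ctrl), 0.370 (dendritic, WT_UV over WT_Ctrl) and 1.32 (dendritic, RP_UV over WT_Ctrl). The level folds of WT_UV over WT_Ctrl were 1.01 (basal) and 0.740 (dendritic), and those of RP_UV over WT_UV 1.75 (basal), 1.38 (dendritic) and 1.15 (macrophage). Ccna2 gave 0.991, and higher members in macrophage-like cells numbered 6 and 11 in both comparisons. With classes from marker UMIs, the level folds of WT_UV over WT_Ctrl were 1.30 (basal), 0.897 (dendritic) and 1.38 (macrophage), that of RP_UV over WT_UV in macrophage-like cells was 1.16, the counts there 19 and 10, and Cdc20 gave 1.37. With each library clustered alone, the level folds were 0.975 (dendritic) and 1.23 (macrophage) for WT_UV over WT_Ctrl, and 1.36 (basal) and 1.28 (macrophage) for RP_UV over WT_UV.

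With at least 4 rule genes the basal share ratios were 1.06 for WT_UV and 2.41 for RP_UV, both over WT_Ctrl, and with thinning to 1000 UMIs the latter was 2.65. Without the cycling cells the level folds were 1.26 and 1.16 for WT_UV over WT_Ctrl and 2.32 and 1.32 for RP_UV over WT_UV (basal, dendritic), and 1.20 with 17 higher members in macrophage-like cells. As a mean over cells, the folds of RP_UV over WT_UV were 1.70, 1.46 and 1.24 (basal, dendritic, macrophage), and 1.12 for macrophage-like cells in WT_UV over WT_Ctrl. Without the 5% highest Scrublet scores, macrophage-like cells gave 1.38 for RP_UV over WT_UV and 4 higher members in WT_UV over WT_Ctrl. A fold of 2 left 4 and 10 higher members (basal) and 16 (macrophage, RP_UV over WT_UV), and a minimum of 50 UMIs left 1 (macrophage, WT_UV over WT_Ctrl).

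Alternatives chosen after seeing the data gave the following. Not thinned, the dendritic share ratios were 1.51 and 1.48. Without clusters over 1 in 3 cycling, the basal ratios over WT_Ctrl were 6.24 (WT_UV) and 15.6 (RP_UV). Without Retnla-led clusters the dendritic level fold of WT_UV over WT_Ctrl was 0.947. Without Stmn1, Hmgb2 and Tubb5 the level folds of RP_UV over WT_UV were 1.72 (basal) and 1.52 (macrophage), and that of WT_UV over WT_Ctrl was 1.01 (macrophage).

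In T cell-like cells, the level fold of WT_UV over WT_Ctrl was 0.786 with marker UMIs, 0.946 with the cell cycle genes, 0.822 as a mean over cells, 0.626 with 4000 genes, 0.918 without cycling cells and 0.966 without high Scrublet scores. That of RP_UV over WT_UV was 1.10 with 4000 genes, 1.56 with 6000 and 1.16 without cycling cells, and that of RP_UV over WT_Ctrl 1.63 with 6000 and 1.06 without cycling cells. Of all alternative values of the main results, 116 kept their direction and size, 55 moved and 7 changed direction.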
